A study of Homo sapiens with 12 samples.

Results

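The transcripts described here were 23 long non-coding RNAs that carry small nucleolar RNAs (snoRNAs) in their introns or bear the name of such genes, out of 23434 rows in the count table. They were chosen by name: every row whose Entrez identifier maps to an SNHG symbol (small nucleolar RNA host gene) followed by a number, together with GAS5, ZFAS1 and DANCR. The rule itself uses names only, but it was set with earlier results of these data known. The RefSeq annotation holds 32 genes under these names, and 9 of them (SNHG14, SNHG19, SNHG21, SNHG22, SNHG25, SNHG26, SNHG27, SNHG30 and SNHG31) were not analysed here. CCDC26 was left out of the group.

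The RNA came from U2OS-MycER cells, a human osteosarcoma line with a transgene that encodes Myc fused to the estrogen receptor, so that 4-hydroxytamoxifen (OHT) switches the fusion on. All cells also carried a hairpin RNA switched on with doxycycline at 1 µg/mL, either non-targeting (shNT) or directed at CDK12 (shCDK12), a kinase of the elongating RNA polymerase II. The 4 groups of 3 libraries each were shNT, shNT+OHT, shCDK12 and shCDK12+OHT, with OHT at 300 nM for 40 h. Cells of every group were arrested with nocodazole at 100 ng/mL for 8 h, collected by shake-off, released for 12 h and labelled with 0.5 mM 5-ethynyl-uridine (EU) over the last 2 h, so that the sequenced RNA was newly made.

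SnoRNAs guide chemical modification of ribosomal RNA, the box C/D family in 2'-O-methylation and the box H/ACA family in pseudouridylation, while the related small Cajal body RNAs act on spliceosomal RNAs. Human snoRNAs are mostly trimmed out of the introns of a host gene, and in the genes studied here the spliced exons code for no known conserved protein and are often removed by nonsense-mediated decay. Several hosts begin with a terminal oligopyrimidine (TOP) stretch, a C followed by a run of C and T, which they share with ribosomal protein genes and which ties translation of the RNA to growth signals.

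By the annotation 22 of the 23 genes held at least 1 snoRNA or small Cajal body RNA inside their span, and SNHG28 held none. Box H/ACA RNAs alone lay in 10 of them (DANCR, SNHG3, SNHG4, SNHG7, SNHG8, SNHG9, SNHG11, SNHG15, SNHG17 and SNHG33) and box C/D RNAs alone in 8 (SNHG1, SNHG5, SNHG6, SNHG16, SNHG18, SNHG29, SNHG32 and ZFAS1). GAS5 and SNHG12 held both families, and SNHG10 and SNHG20 held a small Cajal body RNA.

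Promoter sequence of RefSeq (assembly GRCh38.p14, 250 bases before to 50 after the annotated start) was given for 20 of the 23 genes, and SNHG6, SNHG9 and SNHG15 had no entry. A C followed by at least 4 further C or T bases stood exactly at the annotated start of 6 of the 20 (30.0%), beside 4.04% of all 27305 promoters of the same table. Those 6 are shown first, from 20 bases before to 20 bases after the start, 5′ to 3′ on the gene's own strand, with the run from the start on in capitals, because they show the TOP stretch for which the group is known. In SNHG12 and SNHG18 a C at offset -1 extends the run upstream of the start, and the SNHG18 run of 21 bases goes past the 20 shown.
SNHG12: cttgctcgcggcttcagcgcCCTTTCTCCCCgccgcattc
ZFAS1: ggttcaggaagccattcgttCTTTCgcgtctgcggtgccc
SNHG5: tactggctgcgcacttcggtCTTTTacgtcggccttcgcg
SNHG32: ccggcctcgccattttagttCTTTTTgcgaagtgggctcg
SNHG4: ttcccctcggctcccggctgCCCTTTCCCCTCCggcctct
SNHG18: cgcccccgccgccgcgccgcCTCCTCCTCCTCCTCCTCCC
They lie at chr1:28581854-28581893 (minus strand), chr20:49278622-49278661 (plus), chr6:85678714-85678753 (minus), chr6:31834896-31834935 (plus), chr5:139274081-139274120 (plus) and chr5:9546180-9546219 (plus). Of the 6, SNHG12, ZFAS1 and SNHG5 are among the genes given library by library below.

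The next 5 are the genes called higher under OHT in shNT that have a promoter in the table. They are shown because none had such a run at its annotated start, while in 3 of the 5 a run lay a few bases downstream (capitals). These 5 were picked by their call and are few, so no link between the run and the OHT response can be drawn from them.
SNHG17: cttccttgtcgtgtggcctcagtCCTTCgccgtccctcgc
SNHG16: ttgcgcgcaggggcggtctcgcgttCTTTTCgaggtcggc
DANCR: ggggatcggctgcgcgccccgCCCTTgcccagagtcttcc
SNHG1: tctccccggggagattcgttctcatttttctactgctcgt
SNHG10: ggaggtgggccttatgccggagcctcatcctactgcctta
They lie at chr20:38435309-38435348 (minus), chr17:76557744-76557783 (plus), chr4:52712374-52712413 (plus), chr11:62855866-62855905 (minus) and chr14:95534853-95534892 (minus). Allowing the run to begin up to 10 bases from the annotated start, a window set after the values were seen, it was found in 14 of the 20 genes (70.0%) and in 33.3% of all promoters. Whether the annotated starts are those used in these cells was not tested.

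The E-box CACGTG, the letters best known for binding Myc with its partner Max, was sought on both strands, which for these letters are identical, and was found in 1 of the 20 promoters (5.0%) and in 7.43% of all promoters. That gene was SNHG7, where the E-box began 122 bases upstream of the start; the 30 bases around it, chr9:136728289-136728318 (minus strand), are shown with the E-box in capitals because it was the single match.
SNHG7: ctgagcagcgccCACGTGcgggcgcgggga
SNHG1, SNHG10, SNHG16, SNHG17 and DANCR had no match within the window, which says only that these letters are not in those bases.

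Counts per library summed to between 1251695 and 10447836, and the shNT libraries, with OHT (at most 3666406) and without it (at most 5227279), were shallower than the libraries labelled shCDK12 with OHT (at least 5378438). Across genes, libraries of a group correlated with r from 0.921 to 0.993. Of 6 mesenchymal markers set against the label, 5 were well measured and COL1A2 stood at 0 to 5 counts. In CPM, the count scaled to the library total with edgeR's TMM factor, the summed level of these 6 was 1590 to 1685 in shNT, 1146 to 1236 in shNT+OHT, 476 to 483 in shCDK12 and 666 to 692 in shCDK12+OHT. The sum thus fell where most host genes rose, and its part in the results was not tested. Much of the fall was that of FN1, with means of 659, 347, 38.2 and 100 CPM in the same order. VIM did not fall in shNT+OHT (mean 330, beside 323 in shNT). Of 6 markers of other lineages, the blood genes PTPRC and CD3E, the liver gene ALB and SOX10 had at most 12 counts in any library, EPCAM at most 91 and CDH1 at most 84. EPCAM was highest in shCDK12, with means of 0.82, 1.58, 8.03 and 2.64 CPM in the same order of groups. CDH1 was lowest there, with means of 9.57, 9.32, 6.1 and 7.63 CPM. Mouse RNA was added to each sample, but the table has no mouse rows, so a change in the total amount of new RNA cannot be seen, and every value below is relative to the library it came from. In RNA from whole cultures, fewer cells making a transcript and less of it per cell cannot be told apart.

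CDK12 itself showed no called difference between the hairpins without OHT, and under OHT it was lower in the libraries labelled shCDK12. Its level was 323, 289 and 300 CPM in shNT, 434, 356 and 400 in shNT+OHT, 293, 277 and 298 in the libraries labelled shCDK12 and 215, 208 and 218 in those labelled shCDK12+OHT. Without OHT the shCDK12 libraries overlapped those of shNT, at a log2 change of -0.037 ± 0.085 (SE; adjusted p = 0.724 from the quasi-likelihood test of edgeR, adjusted over all rows tested by the Benjamini-Hochberg method). With OHT they lay below shNT+OHT in all 3 libraries (log2 -0.90 ± 0.11, edgeR adjusted p = 9.12e-05). The reads came from RNA labelled with EU over 2 h, so the standing level of CDK12 RNA or protein was not measured. No other measure of the silencing was at hand, and these groups are called the libraries labelled shCDK12. The labels do not say whether the 3 libraries of a group came from separate cultures, and p-values measure only the spread between these libraries.

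The 23 genes together took 0.347% to 0.371% of all counts in shNT, 0.409% to 0.459% in shNT+OHT, 0.499% to 0.54% in the libraries labelled shCDK12 and 0.358% to 0.392% in those labelled shCDK12+OHT. The group thus stood highest in the libraries labelled shCDK12, and the ranges of shNT and shCDK12+OHT overlapped. SNHG18, with 1 to 22 counts per library, and SNHG28, with 0 to 8, were below the limit for testing (a mean normalized count above 32) in each comparison.

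Among the box H/ACA hosts, SNHG15 stood at 186, 210 and 171 CPM in shNT, 437, 330 and 369 in shNT+OHT, 327, 351 and 324 in shCDK12 and 165, 197 and 190 in shCDK12+OHT. All 3 shNT+OHT and all 3 shCDK12 libraries lay above every library of the other groups, and shCDK12+OHT overlapped shNT. SNHG17, which holds the SNORA71 copies A to D, was measured at 145, 137 and 142 CPM in shNT, 289, 256 and 260 in shNT+OHT, 247, 219 and 244 in shCDK12 and 143, 132 and 133 in shCDK12+OHT. Its order was the same, with shNT+OHT also above shCDK12 in every library.

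DANCR, known for holding progenitor cells back from differentiation, was at 226, 213 and 190 CPM in shNT, 260, 243 and 337 in shNT+OHT, 364, 384 and 444 in shCDK12 and 306, 321 and 288 in shCDK12+OHT. The shCDK12 libraries were highest and the shNT libraries lowest without overlap, and the OHT groups between them overlapped each other. SNHG11, host of SNORA71E, read 19.9, 28.3 and 20.5 CPM in shNT, 44.8, 26.4 and 33.6 in shNT+OHT, 74.3, 66 and 66.8 in shCDK12 and 44.1, 56.1 and 48.8 in shCDK12+OHT. Its shCDK12 libraries stood above all others, and shNT and shNT+OHT overlapped.

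SNHG9, which starts back to back with RPS2, had 7.03, 8.98 and 9.02 CPM in shNT, 6.89, 13.2 and 15.1 in shNT+OHT, 18.5, 21 and 23.7 in shCDK12 and 10.5, 13.4 and 13.8 in shCDK12+OHT. SNHG7, the gene with the E-box, had 104, 92.3 and 114 CPM in shNT, 95.9, 113 and 115 in shNT+OHT, 171, 194 and 190 in shCDK12 and 117, 139 and 120 in shCDK12+OHT. In both genes shCDK12 was highest without overlap and shNT overlapped shNT+OHT.

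SNHG33 ran the other way, with 8.67, 8.59 and 7.52 CPM in shNT, 3.13, 4.12 and 1.45 in shNT+OHT, 8.57, 7.24 and 9.99 in shCDK12 and 10.6, 13.6 and 9.07 in shCDK12+OHT. Its shNT+OHT libraries were below all others, but they held only 10, 5 and 5 counts, and the gene was under the limit for testing in shNT+OHT against shNT.

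The box C/D host SNHG1, with 8 snoRNAs in its introns, was at 638, 701 and 584 CPM in shNT, 709, 843 and 956 in shNT+OHT, 1003, 1196 and 1124 in shCDK12 and 670, 775 and 695 in shCDK12+OHT. The shCDK12 libraries were highest without overlap, the shNT+OHT libraries lay above shNT by a narrow margin, and shCDK12+OHT overlapped both shNT groups. SNHG16 gave 696, 680 and 629 CPM in shNT, 864, 929 and 949 in shNT+OHT, 797, 812 and 840 in shCDK12 and 530, 568 and 533 in shCDK12+OHT. Its 4 groups did not overlap, with shNT+OHT highest and shCDK12+OHT lowest.

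The TOP-bearing SNHG5 gave 94.4, 93.5 and 106 CPM in shNT, 84, 85.8 and 113 in shNT+OHT, 127, 148 and 116 in shCDK12 and 81.6, 100 and 82 in shCDK12+OHT. ZFAS1, which starts back to back with ZNFX1, gave 113, 122 and 123 CPM in shNT, 106, 125 and 140 in shNT+OHT, 144, 174 and 169 in shCDK12 and 121, 125 and 122 in shCDK12+OHT. In both, shCDK12 lay above the other groups without overlap and the remaining 3 groups overlapped.

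GAS5, first known as a transcript that builds up in growth-arrested cells, stood at 352, 373 and 312 CPM in shNT, 301, 409 and 413 in shNT+OHT, 329, 457 and 368 in shCDK12 and 289, 334 and 294 in shCDK12+OHT, with all 4 groups overlapping. SNHG12, which also holds both families, stood at 125, 115 and 100 CPM in shNT, 107, 125 and 159 in shNT+OHT, 294, 328 and 320 in shCDK12 and 181, 200 and 187 in shCDK12+OHT. Both groups labelled shCDK12 lay above both shNT groups, and shNT overlapped shNT+OHT. SNHG10, host of SCARNA13, stood at 34, 31.8 and 30.6 CPM in shNT, 48.2, 47 and 50.2 in shNT+OHT, 69.5, 91.7 and 83.1 in shCDK12 and 39.7, 49.4 and 45.5 in shCDK12+OHT. Its shNT libraries were lowest and its shCDK12 libraries highest without overlap.

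**Figure D1:**
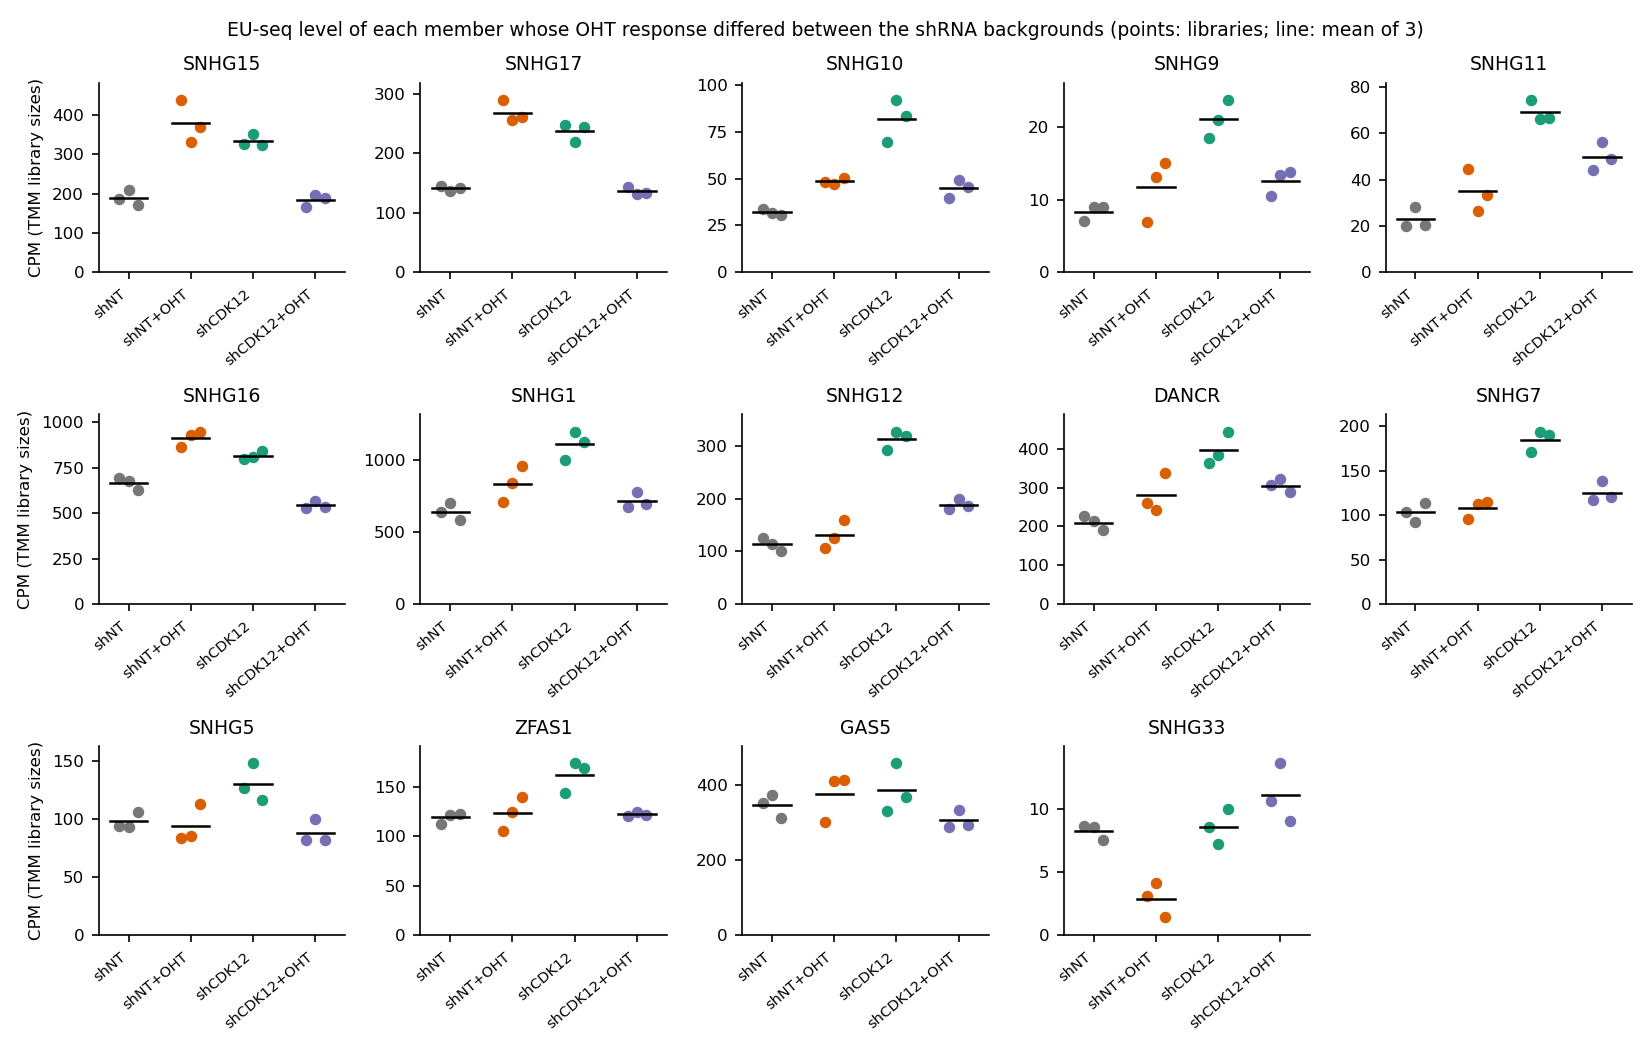
Level of 14 host genes in the 12 libraries, in CPM with TMM-scaled library totals (vertical axes, each from 0), by group; points are libraries and lines are means of 3. In SNHG15 and SNHG17 both shNT+OHT and shCDK12 stand above shNT and shCDK12+OHT, while in SNHG12 the shNT groups overlap and shCDK12 is highest, at 294 to 328.

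The remaining 7 tested genes did not pass the test of a difference in OHT response given below. Over the 12 libraries SNHG3 ran from 265 to 440 CPM, SNHG29 from 223 to 312, SNHG8 from 77.1 to 161 and SNHG32 from 40.1 to 62.5. SNHG6 (10.3 to 58.9 CPM), SNHG4 (18.5 to 36.3) and SNHG20 (7.44 to 16.3) were the lowest of them, and the shNT+OHT libraries of SNHG6 alone ran from 10.3 to 50.3. RefSeq places another gene across part of GAS5, SNHG3, SNHG4, SNHG6, SNHG7, SNHG12, SNHG20, SNHG28 and SNHG29. The other gene lies on the same strand in SNHG3, SNHG4 and SNHG20, and SNHG28 has VSIG8 on its own strand and SLAMF8 on the opposite strand. Genes on the same strand cannot be parted by strand, and the use of strand in counting is not given in the sources used here. The values of all these host genes may therefore include reads of the other gene.

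The first comparison, shNT+OHT against shNT, asks what MycER activation does to these transcripts with CDK12 untargeted. Of the host genes tested, those that passed rose. SNHG15 rose 2.00-fold (log2 1.00 ± 0.13 SE, edgeR adjusted p = 0.000177) and SNHG17 1.90-fold (0.92 ± 0.12, 0.000198). SNHG10 (0.59 ± 0.18, 0.0388), SNHG16 (0.45 ± 0.096, 0.00624), DANCR (0.42 ± 0.13, 0.0432) and SNHG1 (0.38 ± 0.12, 0.035) rose less. In all 6 of these genes the groups did not overlap with OHT higher, as in 16.9% of all rows tested, and 0 lay lower without overlap, beside 19.0% of all rows.

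In all, 6 of 19 tested host genes were called higher and 0 lower, beside 9.11% higher and 8.27% lower among all 10272 rows tested. None of the 19 was lower at an unadjusted p under 0.05 in edgeR (0 genes), and DESeq2 called 0 lower. SNHG33, not among the 19, was called lower in the 3 alternatives that let it in: a minimum mean count of 10 (-1.61, edgeR adjusted p = 0.0416), no filter (-1.63, 0.0326) and 1 fit of all 12 libraries (-1.64, 0.00361). The median log2 change was 0.15 in the host genes and -0.029 in all rows. Without shNT+OHT library 3 the host gene median was 0.054, and without shNT+OHT library 1 it was 0.27. The calls were 3 of 9 box H/ACA hosts, 2 of 7 box C/D hosts, 1 of 1 tested host of a small Cajal body RNA and 0 of the 2 with both families, GAS5 being at 0.11 ± 0.13 and SNHG12 at 0.20 ± 0.16. SNHG11 (0.63 ± 0.25, edgeR adjusted p = 0.092) and SNHG9 (0.48 ± 0.36, 0.377) had changes of similar size with wider errors. The TOP-bearing ZFAS1 (0.047 ± 0.14) and SNHG5 (-0.045 ± 0.16) did not pass.

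These calls were not equally firm. SNHG15 and SNHG17 passed under each alternative run, whereas the count of 6 became 3 without shNT library 1, 2 without shNT library 2, 3 without shNT library 3 or shNT+OHT library 3, and 3 with every library thinned to the smallest. Calls over all rows fell too, from 1785 of 10272 to 753 of 10072, 651 of 9892, 824 of 10449 and 1076 of 10255 without these libraries in turn. With every library thinned they were 1219 of 7351. DANCR, SNHG1 and SNHG10 lost their call without any 1 of those 4 libraries (highest edgeR adjusted p 0.214, 0.166 and 0.174), DANCR falling to 0.27 without shNT+OHT library 3, and SNHG16 lost it without shNT library 2 (0.0568). Thinning also removed the calls of DANCR, SNHG1 and SNHG10. The replicate number as a block removed those of DANCR and SNHG10, upper-quartile library sizes that of DANCR, and no filter that of SNHG10.

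The second comparison, shCDK12 against shNT, asks what differs between the hairpins without OHT. Most host genes stood higher in the libraries labelled shCDK12, and the largest rises were in 4 genes. SNHG11 was 3.03-fold higher (log2 1.60 ± 0.15, edgeR adjusted p = 7.64e-10) and SNHG12 2.82-fold (1.49 ± 0.093, 8.05e-14). SNHG9 was 2.62-fold higher (1.39 ± 0.23, 8.94e-06) and SNHG10 2.60-fold (1.38 ± 0.14, 1.67e-09).

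A further tier lay close together between 0.78 and 0.95 on the log2 scale. It held DANCR (0.95 ± 0.09, edgeR adjusted p = 6.15e-10), SNHG7 (0.90 ± 0.10, 2.05e-08), SNHG15 (0.85 ± 0.087, 2.46e-09), SNHG1 (0.82 ± 0.079, 7.4e-10), SNHG17 (0.78 ± 0.092, 3.69e-08) and SNHG20 (0.78 ± 0.24, 0.00611). Then came SNHG6 (0.69 ± 0.19, 0.00219), ZFAS1 (0.48 ± 0.099, 0.000125), SNHG5 (0.46 ± 0.11, 0.000644) and SNHG16 (0.32 ± 0.074, 0.000484). SNHG29 fell by 0.20 (SE 0.087, 0.0498), and GAS5 (0.19 ± 0.095), SNHG3, SNHG4, SNHG8, SNHG32 and SNHG33 did not pass.

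That made 14 of 21 tested host genes called higher and 1 lower, beside 31.3% and 30.6% of all 11718 rows, so that large numbers of genes outside the group also differed between these libraries. Of the 14, 13 had every shCDK12 library above every shNT library, and SNHG6 overlapped. Of all rows tested, 30.8% lay higher without overlap and 33.7% lower. The median log2 change was 0.69 in the host genes and 0.011 in all rows. With no filter on low counts, which adds SNHG18 and SNHG28, the median was 0.44, and SNHG18 was called lower (-2.16, edgeR adjusted p = 0.00329). SNHG29 lost its call without any library but shNT library 3 (highest edgeR adjusted p 0.195), and SNHG6 lost it at equal depth, at 0.33, and in 1 fit of all 12 libraries. The shNT libraries are those of the first comparison, so the values of both rest on the same 3 controls.

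**Figure D2:**
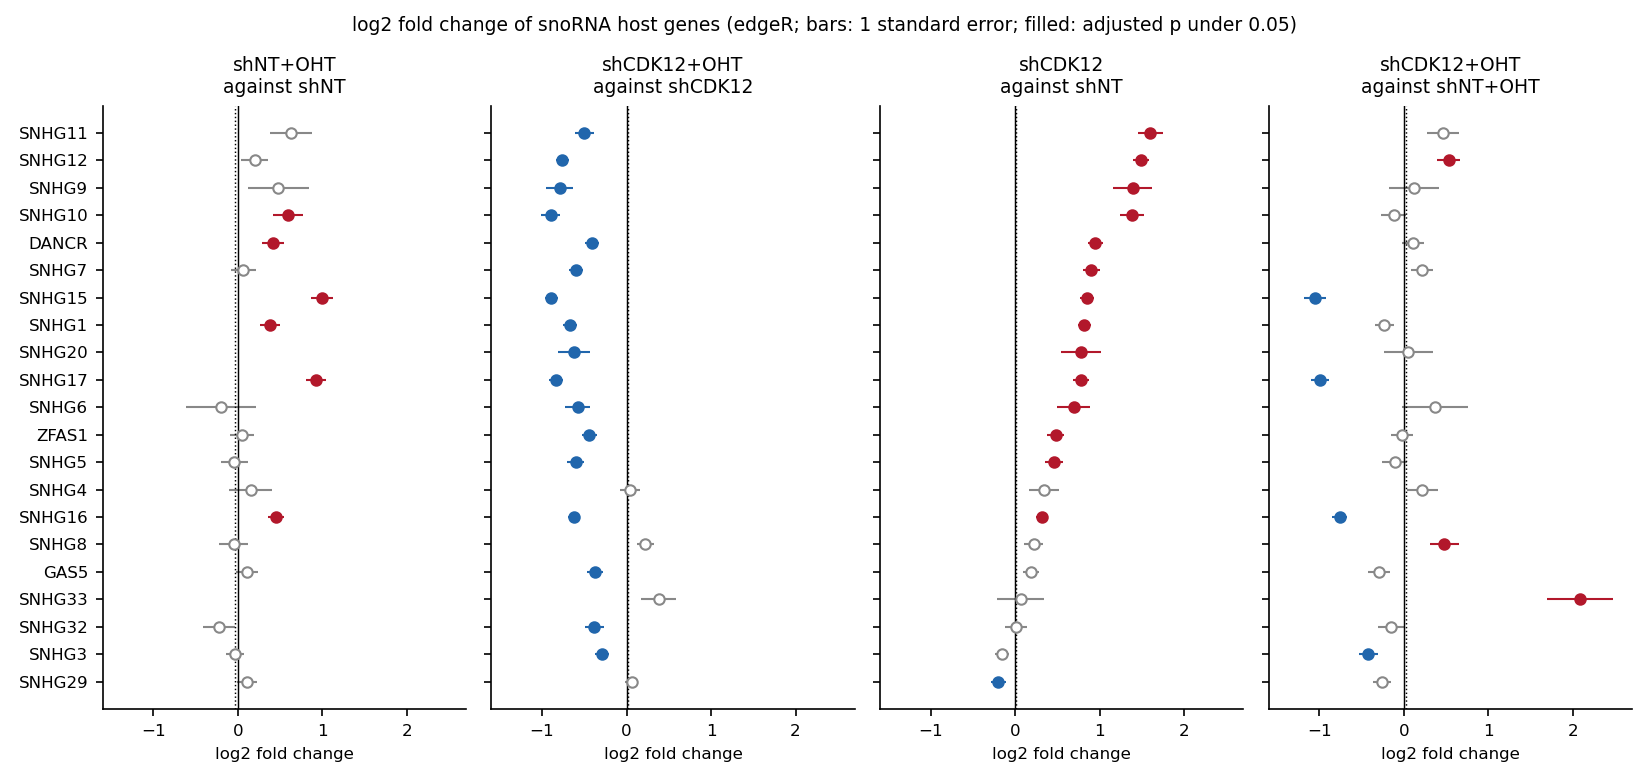
Log2 fold change of each tested host gene in 4 comparisons (horizontal axes; points, edgeR estimate; bars, 1 standard error; red filled, called higher; blue filled, called lower; open, not called; dotted line, median of all rows tested). In shCDK12 against shNT 14 genes lie right of 0 as calls, and in shCDK12+OHT against shCDK12 17 lie left of it.

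The third comparison, shCDK12+OHT against shCDK12, gives the OHT response in the libraries labelled shCDK12, if their labels hold. Over the 10233 rows tested in both hairpin backgrounds, 71% had OHT changes of opposite sign. Whether the OHT labels of these libraries are right was not tested. As labelled, most host genes fell. The largest falls were those of SNHG10 (log2 -0.90 ± 0.11, edgeR adjusted p = 2.81e-06), SNHG15 (-0.89 ± 0.081, 4.15e-08), SNHG17 (-0.83 ± 0.083, 1.35e-07), SNHG9 (-0.79 ± 0.16, 0.00054) and SNHG12 (-0.76 ± 0.076, 1.42e-07). For SNHG15 this was a level 1.86-fold lower than in the libraries labelled shCDK12 without OHT. In shNT its libraries with OHT stood 2.00-fold above those without.

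SNHG1 (-0.67 ± 0.078), SNHG16 (-0.62 ± 0.069), SNHG20 (-0.62 ± 0.19), SNHG5 (-0.60 ± 0.10), SNHG7 (-0.60 ± 0.087), SNHG6 (-0.58 ± 0.15) and SNHG11 (-0.50 ± 0.11) followed, with edgeR adjusted p from 6.22e-07 to 0.0094. ZFAS1 (-0.44 ± 0.086), DANCR (-0.41 ± 0.081), SNHG32 (-0.38 ± 0.11), GAS5 (-0.37 ± 0.097) and SNHG3 (-0.29 ± 0.079) fell least. SNHG4 (0.042 ± 0.12), SNHG8 (0.22 ± 0.10), SNHG29 (0.061 ± 0.08) and SNHG33 (0.38 ± 0.21) did not pass.

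In all, 17 of 21 were called lower and 0 higher, beside 23.6% lower and 25.5% higher among 12519 rows, and 16 of the 17 had no overlap between the groups, GAS5 being the exception, beside 24.7% of all rows that lay lower without overlap and 31.7% that lay higher. SNHG8 was higher at an unadjusted edgeR p of 0.0427, the only 1 of the 21 to pass in that direction, and DESeq2 called 0 higher. It was called higher with no filter, with the replicate block and without shCDK12 library 2 or shCDK12+OHT library 1 (lowest edgeR adjusted p 0.0104), and SNHG18 was called higher with no filter (1.35, 0.0457) and with a minimum mean count of 10 (1.32, 0.0383). The median log2 change was -0.58 in the host genes and 0.015 in all rows. Box H/ACA hosts gave 7 of the falls (of 10 tested), box C/D hosts 6 (of 7), and GAS5, SNHG12, SNHG10 and SNHG20 the rest. SNHG20 lost its call without shCDK12+OHT library 3 (edgeR adjusted p = 0.0549), and SNHG6 lost its call at equal depth (-0.35) and in 1 fit of all 12 libraries. The shCDK12 libraries that serve as controls here are those that stood high in the second comparison.

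The fourth comparison, shCDK12+OHT against shNT+OHT, sets the hairpins side by side in the libraries labelled OHT. Here the host genes split. SNHG15 (log2 -1.05 ± 0.13, edgeR adjusted p = 0.000107), SNHG17 (-0.99 ± 0.11, 6.2e-05), SNHG16 (-0.76 ± 0.088, 9.12e-05) and SNHG3 (-0.42 ± 0.11, 0.00727) were lower, and SNHG33 (2.09 ± 0.39, 0.00151), SNHG12 (0.53 ± 0.14, 0.0122) and SNHG8 (0.48 ± 0.17, 0.0361) higher. The calls of 3 higher and 4 lower among 21 stood beside 22.7% higher and 22.7% lower of all 11668 rows, which is no larger a share, and the medians were -0.018 and 0.024. Without overlap between the groups, 4 of the 21 lay higher and 5 lower, beside 29.2% and 26.0% of all rows.

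The count of 7 became 11 without shNT+OHT library 1 and 4 without shCDK12+OHT library 2. Calls over all rows went from 5295 of 11668 to 6252 of 11851 and 3501 of 11038 in the same settings. SNHG8 lost its call without any 1 of the shCDK12+OHT libraries (highest edgeR adjusted p 0.133) and was at 0.28 without shNT+OHT library 1. SNHG12 lost its call without shCDK12+OHT library 2 (0.0515) and SNHG3 lost its call without shCDK12+OHT library 3 (0.0545). The value of SNHG33 rests on the 10, 5 and 5 counts of the shNT+OHT libraries. It passed the limit for testing only through the shCDK12+OHT libraries, where it is high, so its call is no support for a difference. In the interaction too its mean in shNT+OHT lay under the limit.

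The last test asked directly whether the OHT response differed between the hairpins, as the log2 response in the libraries labelled shCDK12 minus that in shNT, in 1 fit of all 12 libraries. The response was lower in the libraries labelled shCDK12 for 13 of 21 host genes and higher for 1, beside 21.9% lower and 23.2% higher among 11699 rows, and the median difference was -0.70 against 0.036 in all rows. The largest differences were in SNHG15 (-1.93 ± 0.16, edgeR adjusted p = 6.35e-09), SNHG17 (-1.79 ± 0.14, 4.52e-09) and SNHG10 (-1.52 ± 0.20, 3.12e-06).

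SNHG9 (-1.29 ± 0.37, edgeR adjusted p = 0.00731), SNHG11 (-1.17 ± 0.25, 0.000727), SNHG16 (-1.10 ± 0.11, 1.3e-07), SNHG1 (-1.08 ± 0.14, 3.29e-06) and SNHG12 (-0.99 ± 0.17, 6.15e-05) came next. DANCR (-0.87 ± 0.16, 0.000149), SNHG7 (-0.70 ± 0.17, 0.00185), SNHG5 (-0.59 ± 0.19, 0.0154), ZFAS1 (-0.52 ± 0.16, 0.0107) and GAS5 (-0.50 ± 0.17, 0.02) had smaller differences. SNHG33 differed the other way (2.00 ± 0.47, 0.00156). SNHG3, SNHG4, SNHG6, SNHG8, SNHG20, SNHG29 and SNHG32 did not pass.

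GAS5 lost its call without shNT+OHT library 3, shCDK12 library 2 or shCDK12+OHT library 1 (highest edgeR adjusted p 0.0642), SNHG5 (0.0668) and SNHG9 (0.0543) lost theirs without shNT+OHT library 3, and SNHG7 lost its call at equal depth (0.0531).

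The OHT responses in the 2 hairpin backgrounds share no library and can be set side by side. Their log2 changes had opposite signs in 13 of the 19 host genes tested in both (68.4%), and in 71.0% of the 10233 rows tested in both, so opposite signs were as common outside the group as in it. The 6 genes of equal sign were SNHG3, SNHG4, SNHG5, SNHG6, SNHG29 and SNHG32, of which 0 were called in shNT+OHT against shNT.

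**Figure D3:**
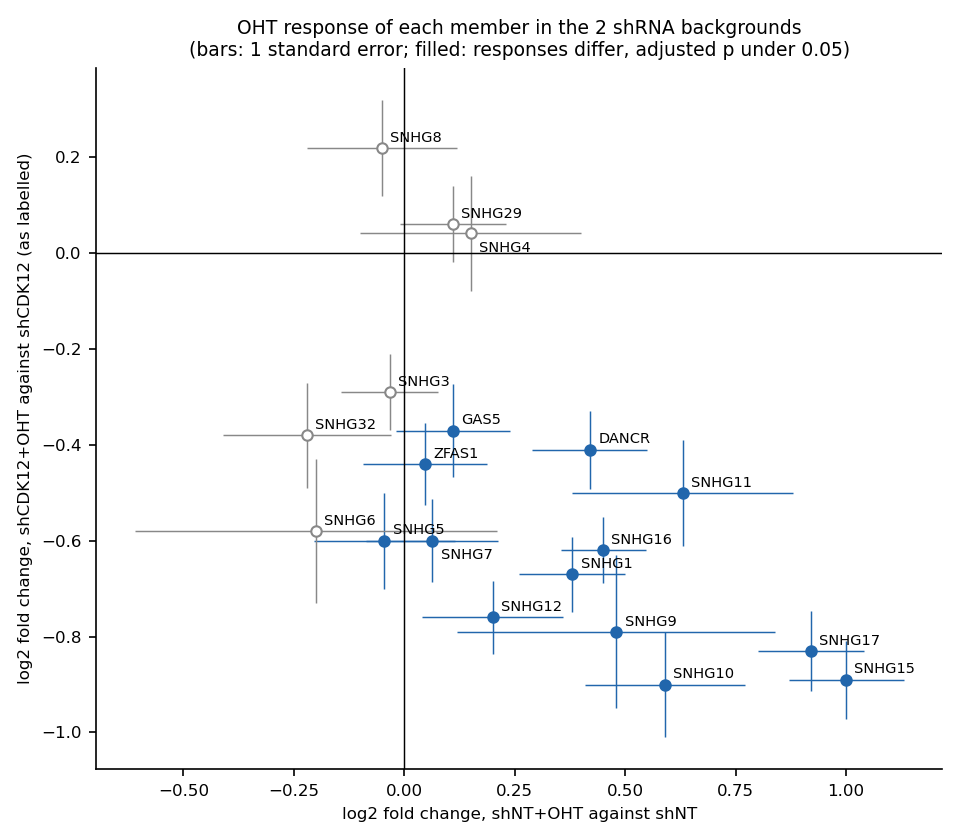
Log2 OHT response of 19 host genes in shNT (horizontal) and in the libraries labelled shCDK12 (vertical), with bars of 1 standard error; filled points are genes whose responses differed (edgeR adjusted p under 0.05). SNHG15 lies farthest to the right, at 1.00, with -0.89 on the vertical axis, and SNHG8, SNHG4 and SNHG29 lie above 0 vertically.

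The snoRNAs themselves were looked for inside the host genes. The annotation places 57 of them there, 49 had a row, and 16 of those 49 had 0 counts in all 12 libraries, among them 6 of the 8 in SNHG1, 3 of the 9 in GAS5 and 3 of the 4 in SNHG12. Why these rows were empty was not tested. Reads of an unspliced host intron and of the snoRNA within it cannot be told apart in such counts, and the SNORA71 and SNORD12 copies are near-identical families whose reads may have been split or dropped.

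In the libraries labelled shCDK12 against shNT, 13 of 20 tested snoRNAs were called higher and 1 lower, beside 31.3% and 30.6% of all rows. Of the 20, SNORA71E, SNORD77 and SNORD99 passed the limit for testing only through the shCDK12 libraries, and all 3 were called. The count is thus tilted upward by the limit, and the calls of these 3 are no support for a difference. With no filter 17 of 33 were called higher and 1 lower. SNORA71E, inside SNHG11, was at 7.73, 4.1 and 5.51 CPM in shNT, 11.6, 2.47 and 8.7 in shNT+OHT, 28.5, 24.8 and 21.1 in shCDK12 and 16.7, 19.2 and 14.9 in shCDK12+OHT. Its 3 shCDK12 libraries read higher than any other library (log2 2.14 ± 0.26 against shNT), with the limit on its call given above. SNORD28 in SNHG1 (1.55 ± 0.22, edgeR adjusted p = 1.03e-06), SNORD12B in ZFAS1 (1.27 ± 0.24, 6.16e-05), SNORD50B in SNHG5 (1.17 ± 0.28, 0.000648) and SNORA26 in DANCR (1.13 ± 0.18, 4.63e-06) rose. SNORD99 in SNHG12 was at 1.31 ± 0.33, with the same limit on its call as SNORA71E. In ZFAS1 the copies SNORD12 (-0.12 ± 0.23) and SNORD12C (-0.12 ± 0.23) did not pass.

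With OHT in the libraries labelled shCDK12, 10 of 24 tested snoRNAs fell, beside 23.6% of all rows called lower. SNORD1A, 1 of the 10, passed the limit for testing only through the libraries without OHT, so its call is no support for a difference. With no filter 12 of 33 fell. SNORD28 fell by 1.00 on the log2 scale (SE 0.19, edgeR adjusted p = 0.000274), and SNORD99 (-0.95 ± 0.22, 0.00133), SNORD50B (-0.90 ± 0.22, 0.00188) and SNORA26 (-0.70 ± 0.14, 0.000464) were among the others. The 1 that rose was SNORA74A in SNHG4 (0.60 ± 0.18, 0.00809), which was also the 1 that was lower in shCDK12 against shNT (-0.61 ± 0.21, 0.0115), with the shCDK12 libraries shared by both comparisons. SNHG4 itself passed neither test, and RefSeq places MATR3 across it.

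In shNT+OHT against shNT 1 of 15 tested snoRNAs was called higher and 0 lower, beside 9.11% and 8.27% of all rows. At an unadjusted p under 0.05 in edgeR 2 were lower, and DESeq2 called 0 lower. With no filter 3 of 32 were higher and 1 lower. The 1 called in the main fit was SNORA71A in SNHG17, at 8.9, 14.2 and 10.5 CPM in shNT, 39.5, 19.8 and 33.6 in shNT+OHT, 20.4, 16.3 and 21.8 in shCDK12 and 15.4, 13.2 and 15.4 in shCDK12+OHT. Its shNT+OHT libraries overlapped shCDK12 and lay above shNT (1.49 ± 0.30, edgeR adjusted p = 0.00408), and its OHT response differed between the hairpins (-1.98 ± 0.34, 8.37e-05), as did that of its host. The interaction was called lower for 8 of 19 snoRNAs and higher for 0, beside 21.9% and 23.2% of all rows. At an unadjusted p under 0.05 in edgeR, and by DESeq2, 0 were higher. SNORA71E and SNORD99, both among the 8, had a group mean under the limit for testing, so their calls are no support for a difference. With no filter 8 of 33 were lower and 0 higher. In shCDK12+OHT against shNT+OHT 4 of 18 were called higher and 3 lower, close to the 22.7% each way of all rows.

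**Figure D4:**
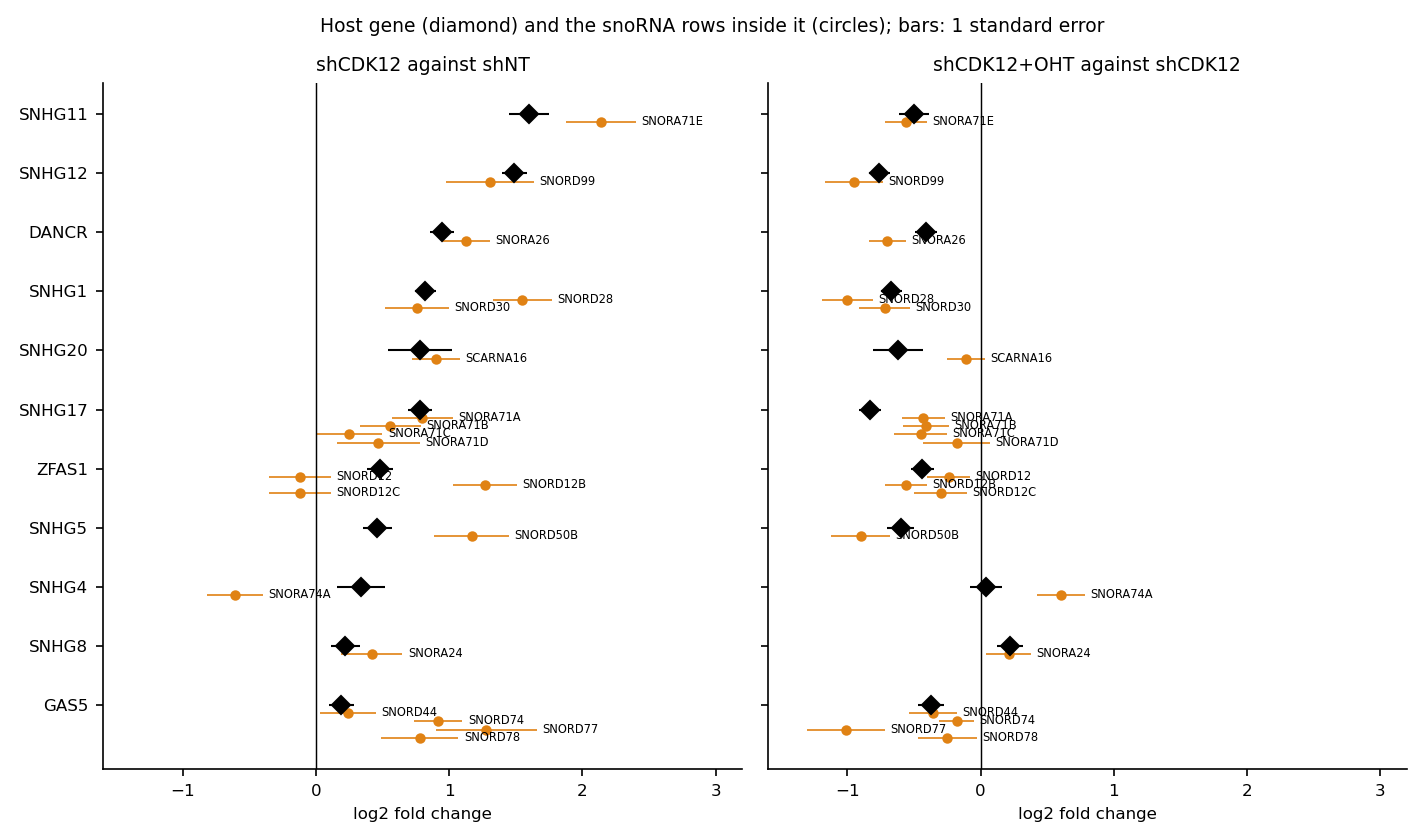
Log2 fold change of host genes (diamonds) and of the tested snoRNA rows inside them (circles, named) in shCDK12 against shNT and in shCDK12+OHT against shCDK12; bars are 1 standard error. SNORA71E, which passed the limit for testing only through the shCDK12 libraries, lies at 2.14 beside SNHG11 at 1.60 in the first panel. SNORA74A lies across 0 from most others in both panels.

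Protein-coding genes also host snoRNAs, and a list of 42 of them was counted in the same fits, with 1 absent from the table (EIF4A1). In shNT+OHT against shNT their median log2 change was 0.35. At an unadjusted p under 0.05 in edgeR 1 was lower, and DESeq2 called 0 lower. Of 40 tested, 17 were called higher and 0 lower, beside 9.11% and 8.27% of all rows. The 4 with the most counts among them were HSPA8, a chaperone (0.49 ± 0.079, edgeR adjusted p = 0.00111), EEF2, the translocation factor of the ribosome (0.49 ± 0.099, 0.00444), RPL4 of the large ribosomal subunit (0.50 ± 0.095, 0.00299) and NCL, or nucleolin (0.81 ± 0.096, 9.38e-05).

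In the libraries labelled shCDK12 against shNT 25 of 40 were higher and 5 lower, beside 31.3% and 30.6% of all rows (median 0.30). HSPA8 was among the lower (-0.48 ± 0.068, edgeR adjusted p = 8.51e-07) and NCL among the higher (0.83 ± 0.079, 5.8e-10). With OHT in those libraries 25 of 41 were lower and 1 higher, beside 23.6% and 25.5% of all rows (median -0.26). Under OHT, 23 of 41 were lower and 2 higher in shCDK12 than in shNT (median -0.43), beside 22.7% each way of all rows. The interaction was called lower for 28 of 41 and higher for 1, beside 21.9% and 23.2% of all rows (median -0.59).

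Under OHT in shNT, proteins that bind and assemble snoRNAs had a median log2 change of 0.62. None was lower at an unadjusted p under 0.05 in edgeR (0) or by DESeq2 (0). Of 20 tested, 12 were called higher and 0 lower, beside 9.11% and 8.27% of all rows. NOLC1, a nucleolar chaperone of these particles (1.17 ± 0.11, edgeR adjusted p = 1.13e-05), NOP56, a core box C/D protein and itself a host gene (0.93 ± 0.12, 0.000202), TCOF1, or treacle (0.78 ± 0.14, 0.00212), and DKC1, the pseudouridine synthase and also a host (0.50 ± 0.14, 0.0204), were among them. In the libraries labelled shCDK12 against shNT 14 of 20 were higher and 1 lower, beside 31.3% and 30.6% of all rows (median 0.73). NOLC1 was at 1.36 ± 0.089 (edgeR adjusted p = 2.32e-13), and DKC1 did not pass (0.15 ± 0.097).

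With OHT in those libraries 15 of 20 snoRNP proteins fell and 0 rose, beside 23.6% and 25.5% of all rows (median -0.62). At an unadjusted p under 0.05 in edgeR, and by DESeq2, 0 rose. NOP56 fell by 1.04 on the log2 scale (SE 0.081, edgeR adjusted p = 6.56e-09). Against shNT+OHT 10 were lower and 0 higher in shCDK12+OHT, beside 22.7% each way of all rows (median -0.51). At an unadjusted p under 0.05 in edgeR 1 was higher there, and DESeq2 called 0 higher. The interaction was called lower for 16 and higher for 0, beside 21.9% and 23.2% of all rows (median -1.26). At an unadjusted p under 0.05 in edgeR, and by DESeq2, 0 were higher. NOLC1 was at -2.44 ± 0.14 (edgeR adjusted p = 4.68e-11).

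**Figure D5:**
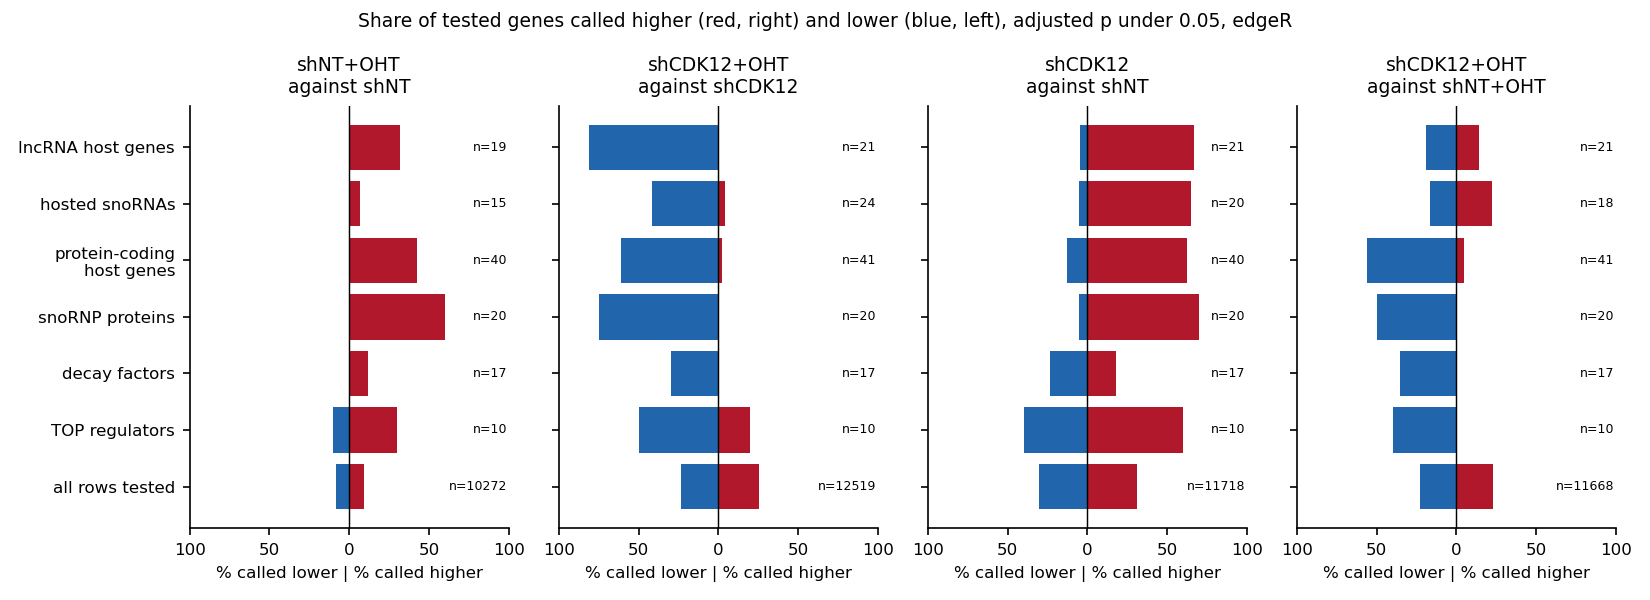
Share of tested genes called higher (red, right of 0) and lower (blue, left) at an edgeR adjusted p under 0.05 in each list and in all rows, in 4 comparisons; n is the number tested. In shNT+OHT against shNT the all-rows bars reach 9.11% and 8.27%, and in shCDK12+OHT against shCDK12 the lncRNA host genes have 17 of 21 called lower.

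Factors of nonsense-mediated decay, the process that removes many spliced host RNAs, were also counted. Of 17 tested, 2 rose in shNT+OHT against shNT and 0 fell (1 at an unadjusted p under 0.05 in edgeR, 0 by DESeq2), beside 9.11% and 8.27% of all rows: EIF4A3, of the exon junction complex (0.77 ± 0.15, edgeR adjusted p = 0.00299), and SMG8, a partner of the SMG1 kinase (0.34 ± 0.11, 0.0413). In shCDK12 against shNT 3 were higher and 4 lower (31.3% and 30.6% of all rows), and in shCDK12+OHT against shCDK12 5 were lower and 0 higher (23.6% and 25.5% of all rows). None was higher in the latter at an unadjusted p under 0.05 in edgeR (0 genes) or by DESeq2 (0). EIF4A3 was higher in the former (0.94 ± 0.11, edgeR adjusted p = 1.61e-08) and lower in the latter (-0.83 ± 0.087, 2.29e-07). Between the hairpins under OHT, 6 of the 17 were lower and 0 higher, beside 22.7% each way of all rows (0 also higher at an unadjusted p under 0.05 in edgeR and by DESeq2). The interaction was called lower for 6 of the 17 and higher for 1, beside 21.9% and 23.2% of all rows.

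Of 10 regulators of TOP messenger RNAs, 3 rose and 1 fell in shNT+OHT against shNT, beside 9.11% and 8.27% of all rows. EIF4EBP1, the translational brake controlled by mTOR (1.03 ± 0.21, edgeR adjusted p = 0.00408), CNBP, a binder of pyrimidine starts (0.83 ± 0.13, 0.000603), and LARP1, which holds TOP messages (0.42 ± 0.11, 0.019), rose, and TIA1, an RNA-binding protein of stress granules, fell by 1.00 on the log2 scale (SE 0.32, 0.0432). In shCDK12 against shNT, which shares the shNT libraries, 6 of 10 were higher and 4 lower, beside 31.3% and 30.6% of all rows. EIF4EBP1 was at 0.98 ± 0.16, CNBP at 0.53 ± 0.086, LARP1 at 0.38 ± 0.084 and TIA1 at -0.94 ± 0.15 (edgeR adjusted p at most 0.000307). In shCDK12+OHT against shCDK12 5 were lower and 2 higher, beside 23.6% and 25.5% of all rows, with LARP1 at -0.58 ± 0.081 (edgeR adjusted p = 8.25e-06). Between the hairpins under OHT 4 were lower and 0 higher in shCDK12, beside 22.7% each way of all rows. At an unadjusted p under 0.05 in edgeR, and by DESeq2, 0 were higher there. The interaction was called lower for 5 and higher for 2, beside 21.9% and 23.2% of all rows.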

How the data were processed

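EU-labelled RNA of 12 libraries was sequenced from TruSeq Stranded Total RNA Gold libraries per the labels. The authors deposited 1 table of raw read counts per human gene, by Entrez identifier, without normalization. The submitters' processing notes name STAR 2.7.5c, featureCounts 1.4.5-p1 and hg19, with no role or order. Counted features, the use of strand and the handling of mouse reads are not given in the sources used here. Symbols came from RefSeq (GRCh38.p14) for 23284 rows, and 150 rows without one stayed in the fits. Other per-sample columns numbered 0.

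Counts were fitted with edgeR 4.0.16 (R 4.3.3): TMM library sizes, quasi-likelihood test, only rows whose normalized counts averaged more than 32 in the fitted libraries, Benjamini-Hochberg adjustment over all rows tested, and calls at an adjusted p under 0.05. Each pairwise comparison used its 6 libraries, and the interaction used all 12. The script was tested on simulated data. Alternatives were DESeq2 1.42.0, upper-quartile library sizes, a minimum of 10, no filter, 1 fit of all libraries, the replicate number as a block, thinning to 1251695 counts and leaving out each library.

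A snoRNA row was counted as hosted where RefSeq places it within a host's span on the same strand (37 rows) or gives it no strand (12). Values per library are printed for host genes called in the interaction or with the largest changes, and for GAS5, ZFAS1, DANCR and SNHG1. From each list, at most 4 genes called in shNT+OHT against shNT are named, those with the most counts. Hosts and lists, written from general knowledge, were chosen with earlier results of these data known, and the snoRNA families, the 10-base window and the neighbouring genes after the values were seen.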

Additional observations from a re-analysis of the deposited data

Results flagged for a closer look

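For 14 host genes the OHT response differed between the libraries labelled shCDK12 and shNT by the interaction test of edgeR, which is what brings them here. The difference, as the log2 response in shCDK12 minus that in shNT, was -1.93 for SNHG15, -1.79 for SNHG17, -1.52 for SNHG10, -1.29 for SNHG9, -1.17 for SNHG11, -1.10 for SNHG16, -1.08 for SNHG1, -0.99 for SNHG12, -0.87 for DANCR, -0.70 for SNHG7, -0.59 for SNHG5, -0.52 for ZFAS1 and -0.50 for GAS5. It was 2.00 for SNHG33, whose shNT+OHT libraries held 10, 5 and 5 counts. The same test called 21.9% of all rows lower and 23.2% higher, so a difference of this kind was common outside the group. Whether the OHT labels of the libraries labelled shCDK12 are right was not tested.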

How the results depend on the processing

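Of 103 host gene values, 59 were called. Under the alternatives, 44 of the 59 kept their call throughout, 15 lost it at least once and 0 changed sign, while of the 44 not called 13 gained a call and 18 changed sign at least once. At equal depth 3 of 18 host genes were called in shNT+OHT against shNT, beside 1219 of 7351 rows. Leaving out libraries gave 2 to 7 host genes, beside 651 to 2568 of all rows. In shCDK12+OHT against shNT+OHT leaving out libraries gave 4 to 11, beside 3501 to 6252 of all rows. The median of the host genes was -0.46 without a filter in shCDK12+OHT against shCDK12, and in shCDK12 against shNT it was 0.57 with a minimum of 10, 0.44 without a filter, 0.50 at equal depth and 0.48 to 0.75 when leaving out libraries. In shCDK12+OHT against shNT+OHT it was -0.17 at equal depth, and the interaction had -0.53 without a filter. Without a filter the median of all rows shifted by 0.11 in shCDK12 against shNT and by 0.19 in shCDK12+OHT against shNT+OHT.

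Signs turned only in values that were not called: SNHG3 in shNT+OHT against shNT (0.00023 with all libraries in 1 fit), SNHG4 in shCDK12+OHT against shCDK12 (-0.066 at equal depth), SNHG32 in shCDK12 against shNT (-0.0029 with upper-quartile sizes, -0.0054 with a minimum of 10, -0.024 without a filter), and ZFAS1 in shCDK12+OHT against shNT+OHT (0.006 without a filter, 0.0077 at equal depth). With single libraries left out, values that were not called also turned sign. In shNT+OHT against shNT they ran for SNHG3 from -0.11 to 0.033, SNHG4 from -0.068 to 0.30, SNHG5 from -0.20 to 0.064, SNHG6 from -0.79 to 0.17, SNHG7 from -0.038 to 0.15, SNHG8 from -0.20 to 0.14 and ZFAS1 from -0.051 to 0.16. In shCDK12+OHT against shCDK12 they ran for SNHG4 from -0.004 to 0.098 and SNHG29 from -0.0027 to 0.12. In shCDK12 against shNT they ran for SNHG32 from -0.048 to 0.086 and SNHG33 from -0.045 to 0.21. In shCDK12+OHT against shNT+OHT they ran for DANCR from -0.003 to 0.23, SNHG5 from -0.23 to 0.015, SNHG9 from -0.22 to 0.44, SNHG20 from -0.094 to 0.21 and ZFAS1 from -0.14 to 0.057. In the interaction they ran for SNHG4 from -0.32 to 0.085 and SNHG6 from -0.71 to 0.21.

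Libraries with the same replicate number deviated together in 2 of 18 pairs (r over 0.1), so the number was not read as a pairing. With the replicate block, 4 of 19 host genes were called higher and 0 lower in shNT+OHT against shNT, beside 858 and 838 of 10272 rows. Between the hairpins without OHT 14 of 21 were higher and 1 lower, beside 3748 and 3680 of 11718 rows. Under OHT within shCDK12, 1 of 21 was higher and 17 lower, beside 3228 and 2969 of 12519 rows. In shCDK12+OHT against shNT+OHT 3 of 21 were higher and 4 lower, beside 2497 and 2299 of 11668 rows. The interaction was called higher for 1 of 21 and lower for 13, beside 2794 and 2588 of 11699 rows. SNHG20 turned to -0.019 with the block in shCDK12+OHT against shNT+OHT.

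Over all rows, calls in shNT+OHT against shNT numbered 1785, 3293 with all libraries in 1 fit and 651 to 2568 when leaving out libraries. At equal depth calls over all rows were 4526 in place of 7258 (shCDK12 against shNT), 3189 in place of 6139 (shCDK12+OHT against shCDK12), 3121 in place of 5295 (shCDK12+OHT against shNT+OHT, 3501 to 6252 when leaving out libraries) and 3226 in place of 5271 (interaction). The smallest libraries were shNT+OHT library 2 (1251695 counts) and shNT library 3 (1928373). The causes of these shifts were not tested.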

Other observations

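Beside 6 host genes another gene starts within 1000 bases on the opposite strand, a set of neighbours looked up after the values were seen. The pairs did not move alike. In shCDK12 against shNT, where SNHG1 and ZFAS1 rose, their neighbours SLC3A2, the heavy chain of amino acid transporters (log2 -0.18 ± 0.079, edgeR adjusted p = 0.0461), and ZNFX1 (-0.72 ± 0.087, 4.43e-08) fell, while GLRX5 beside SNHG10 (0.55 ± 0.14, 0.00184) and RPS2 beside SNHG9 (0.50 ± 0.08, 4.9e-06) rose with theirs. ZBTB37, which overlaps GAS5, fell (-0.97 ± 0.19, 9.54e-05), where GAS5 did not pass. SEMA5A beside SNHG18 had 5, 4 and 3 counts in shNT and 55, 125 and 52 in shCDK12. It passed the limit for testing only through the latter, so its call is no support for a difference, and SNHG18 itself was below the limit.

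With OHT in the libraries labelled shCDK12, SLC3A2 (-0.35 ± 0.071, edgeR adjusted p = 0.000412) and GLRX5 (-0.45 ± 0.11, 0.00282) fell as SNHG1 and SNHG10 did, and ZNFX1 (0.42 ± 0.083, 0.000313) and ZBTB37 (0.71 ± 0.15, 0.000616) rose where ZFAS1 and GAS5 fell. In shNT+OHT against shNT SLC3A2 was the 1 of 5 tested neighbours called (0.67 ± 0.11, 0.00124).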
